A study of Mus musculus with 11 samples.

Results

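The genes of cholesterol and fatty acid synthesis were followed as a set of 30 in sorted mouse bone marrow cells labelled as mesenchymal stromal, 20 in the sterol arm and 10 in the fatty acid arm. They were chosen by gene name, and all 30 were listed and tested in each of the 3 deposited tables, which hold 16507, 14267 and 14910 genes. PolyA RNA was sequenced from 11 samples. The adult group was 3 wild-type samples sorted for the surface proteins PDGFRa and CD51 (set against perinatal cells in the age table). The labelled Sca1-negative group was 2 wild-type perinatal samples sorted as PDGFRa-positive and Sca1-negative, numbered 2 and 3. The Igf1r knockout group was 3 samples sorted as PDGFRa-positive and Sca1-positive, Cre-positive by title, with the gene of the insulin-like growth factor receptor deleted by label. All of these were set against 3 wild-type, Cre-negative perinatal samples sorted as PDGFRa-positive and Sca1-positive, called labelled Sca1-positive below, or perinatal where they are set against adult cells. The sources used here do not give ages in days or weeks, the Cre driver, pooling or the number of animals. The p-values therefore describe only how far these samples spread, which can be technical. Cre and the deletion cannot be told apart. Nor can age, the CD51 sort of the adult cells and the Sca1 sort of the perinatal cells.

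Cholesterol is built from acetyl-CoA through mevalonate, the isoprenoids and squalene, which is closed into lanosterol and then trimmed to cholesterol. Fatty acids are built from the same acetyl-CoA by carboxylation and chain assembly, and are then elongated and desaturated. The transcription factors SREBP-2 and SREBP-1, made from Srebf2 and Srebf1, drive the sterol and the fatty acid genes, and INSIG1 holds them back in the endoplasmic reticulum when sterols are plentiful. SREBPs bind sterol regulatory elements and act with NF-Y, which binds the CCAAT box, and with SP1, which binds GC boxes.

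Promoters are shown for 5 members because they span the behaviours described below: Hmgcs1, Mvk and Mvd of the early sterol arm, and Fasn and Elovl6. In adult cells Fasn and Elovl6 moved in opposite directions in the counts, but in the same direction in the authors' TPM, a second measure described below. Each runs 5′ to 3′ from 250 bases before to 50 bases after the RefSeq start (build GRCm38.p6). Capitals mark matches, on either strand, to the sterol regulatory element core TCACNCCAC and to the CCAAT box, whose letters on the other strand are ATTGG.
Hmgcs1 (chr13:119690101-119690400, plus strand): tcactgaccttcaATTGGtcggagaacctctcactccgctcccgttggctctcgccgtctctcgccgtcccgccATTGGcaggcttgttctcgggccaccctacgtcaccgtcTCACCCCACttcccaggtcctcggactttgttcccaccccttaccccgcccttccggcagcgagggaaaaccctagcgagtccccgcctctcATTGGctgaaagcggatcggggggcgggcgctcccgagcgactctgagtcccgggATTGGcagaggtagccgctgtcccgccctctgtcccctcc
Mvk (chr5:114444019-114444318, plus strand): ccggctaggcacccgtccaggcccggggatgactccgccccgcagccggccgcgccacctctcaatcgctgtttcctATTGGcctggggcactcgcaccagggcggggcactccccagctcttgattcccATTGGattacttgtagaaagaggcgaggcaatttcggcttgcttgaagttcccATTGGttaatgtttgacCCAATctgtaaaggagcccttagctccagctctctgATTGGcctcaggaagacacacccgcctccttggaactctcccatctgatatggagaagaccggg
Mvd (chr8:122443373-122443672, minus strand): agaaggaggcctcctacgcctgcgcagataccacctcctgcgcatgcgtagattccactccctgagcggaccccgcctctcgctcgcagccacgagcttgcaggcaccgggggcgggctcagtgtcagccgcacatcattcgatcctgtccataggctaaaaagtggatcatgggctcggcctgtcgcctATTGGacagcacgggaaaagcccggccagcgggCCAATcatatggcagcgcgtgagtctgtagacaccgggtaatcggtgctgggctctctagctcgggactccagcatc
Fasn (chr11:120824498-120824797, minus strand): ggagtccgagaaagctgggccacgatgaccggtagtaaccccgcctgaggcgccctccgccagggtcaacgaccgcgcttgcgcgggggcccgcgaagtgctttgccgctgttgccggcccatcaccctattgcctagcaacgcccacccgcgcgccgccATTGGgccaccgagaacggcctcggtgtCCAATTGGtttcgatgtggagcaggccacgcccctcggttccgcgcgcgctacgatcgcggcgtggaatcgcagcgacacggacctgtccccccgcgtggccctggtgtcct
Elovl6 (chr3:129532136-129532435, plus strand): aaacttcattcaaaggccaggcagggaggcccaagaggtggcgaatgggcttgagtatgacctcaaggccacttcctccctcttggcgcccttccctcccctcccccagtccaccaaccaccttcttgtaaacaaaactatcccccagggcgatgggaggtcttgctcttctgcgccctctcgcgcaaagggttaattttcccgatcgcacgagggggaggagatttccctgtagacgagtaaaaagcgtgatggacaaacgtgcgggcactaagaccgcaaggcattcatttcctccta

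RefSeq promoters were matched for 23 of the 30 members, 28 promoters in all. The CCAAT box was found in 16 of 19 sterol promoters (84.2%) and in 5 of 9 fatty acid promoters (55.6%), against 37.5% of 13701 promoters of genes tested in the age table and 37.4% of all 32851. Counted by gene, all 16 sterol genes with a promoter had at least 1 that held it, against 42.9% of the tested genes. The Mvk promoter shown above held 5 matches and the Elovl6 promoter 0. The GC box GGGCGG, searched on both strands, was found in 16 of 19 sterol and 5 of 9 fatty acid promoters, against 61.1% of promoters of tested genes. The core TCACNCCAC was found in 1 sterol promoter, that of Hmgcs1, as TCACCCCAC 137 to 129 bases before the start, and in 0 fatty acid promoters, against 1.14% of promoters of tested genes. A match is a run of letters and says nothing of binding.

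Total counts were 13412316 to 23782217 per library, and levels are given as CPM, counts scaled to the library's total. A floor of 3 counts was 0.126 to 0.224 CPM, and covers counting error only. Labelled Sca1-positive libraries 2 and 3 recurred in each of the 3 tables, with all 30 members at equal counts, so the 3 comparisons share them. Library 1 was a different library in the age and knockout tables, with equal counts for 1.72% of genes. Ly6a, the gene of Sca1, went against the labels: it was at 666 and 659 CPM in labelled Sca1-negative libraries, against 13.8 and 10.0 CPM in labelled Sca1-positive libraries 2 and 3. In the knockout table it was at 769, 682 and 930 CPM in knockout libraries, against 425, 13.8 and 10.0 CPM in labelled Sca1-positive libraries 1, 2 and 3. Ly6a is not listed in the age table. Igf1r was at 8.20, 4.22 and 3.24 CPM in knockout libraries, against 29.5, 31.7 and 30.7 CPM in their controls. In the age table Pdgfra was at 13.4 to 15.2 CPM in adult libraries, against 235 to 279 CPM in perinatal ones, while Itgav, the gene of CD51, was at 271 to 305 CPM in adult libraries, against 47.6 to 51.9 CPM in perinatal ones. Lyz2, a macrophage lysozyme, was at 11050 to 12910 CPM in adult libraries, against 10.99 to 11.95 CPM in perinatal ones. The adult values of Pdgfra and Lyz2 go against the PDGFRa sort and the stromal label, so adult below names the labelled group only. Stroma of marrow markers as a list (Pdgfra, Cxcl12, Lepr, Kitl and Itgav) overlapped between these groups. They summed to 572, 881 and 825 CPM in adult libraries, against 575, 822 and 968 CPM in perinatal ones.

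**Figure D1:**
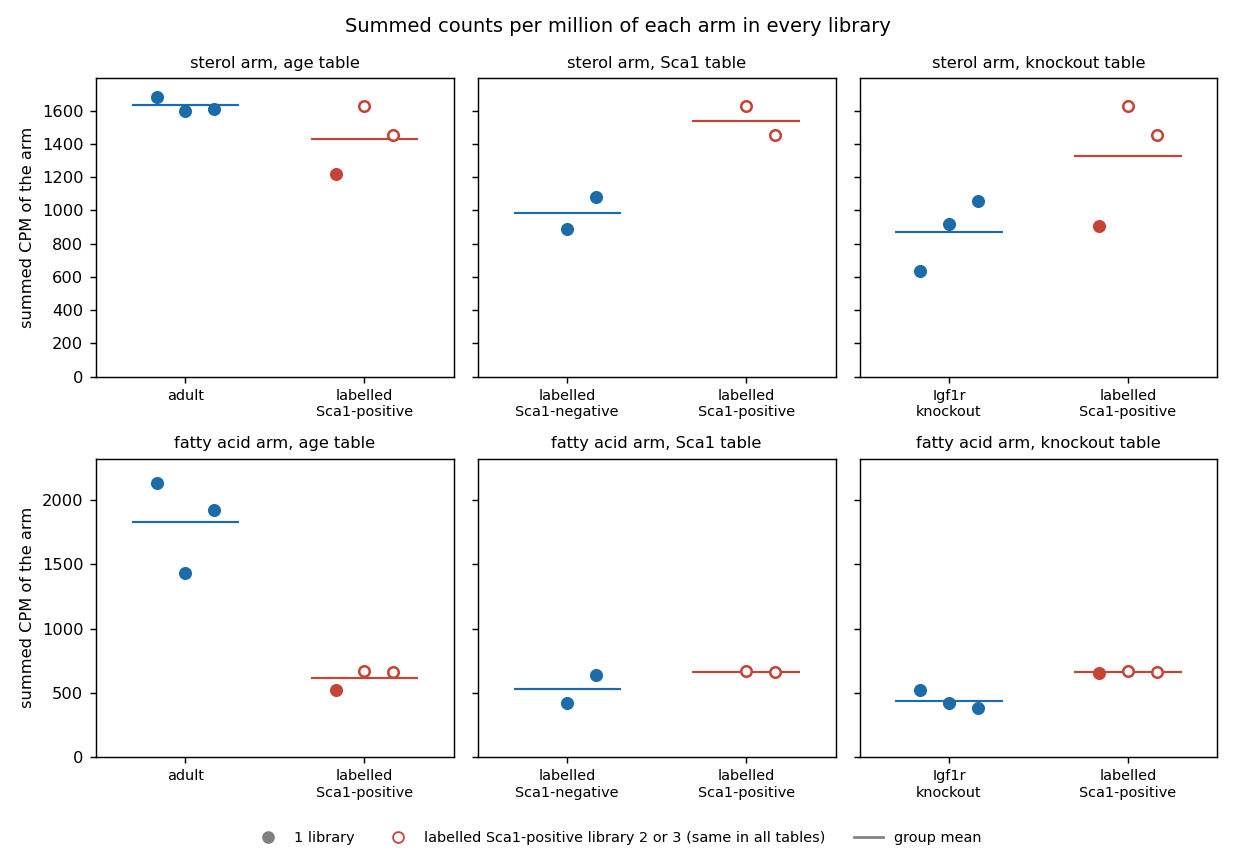
Summed CPM of the 20 sterol genes (top) and the 10 fatty acid genes (bottom) in every library of the 3 tables, on axes that start at 0. Points are libraries, open points are labelled Sca1-positive libraries 2 and 3, and lines are group means; the fatty acid sum was 1430 to 2132 CPM in adult libraries, against 517 to 671 CPM in perinatal ones.

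In adult cells the fatty acid arm was mostly higher and the sterol arm was split. Of the 10 fatty acid genes 7 rose and 1 fell, and of the 20 sterol genes 6 rose and 6 fell, against 37.4% higher and 39.7% lower among all 13757 genes put through the quasi-likelihood test of edgeR. Both sterol shares lay below those of all genes. The median log2 fold change was 0.88 over the fatty acid genes and -0.17 over the sterol genes, against -0.06 over all genes. The adult libraries lay above all perinatal ones for 8 fatty acid and 8 sterol genes and below for 1 and 5, against 45.3% and 35.7% of all genes. The summed fatty acid level was 2132, 1430 and 1920 CPM in adult libraries, against 517, 671 and 657 CPM in perinatal ones, without overlap. The summed sterol level was 1685, 1598 and 1611 CPM in adult libraries, against 1217, 1627 and 1453 CPM in perinatal ones, and these overlapped. In such bulk samples, fewer cells of a type and less RNA per cell cannot be told apart. The 11 macrophage markers, all listed, summed to 24940, 27010 and 23760 CPM in adult libraries, against 25.0, 24.7 and 29.9 CPM in perinatal ones. No macrophage marker was at 0 in an adult library, and 1 to 3 were at 0 in each perinatal library. The 10 cartilage markers summed to 71.3, 55.7 and 91.0 CPM in adult libraries, against 786, 6391 and 7608 CPM in perinatal ones. The 5 listed of 7 adipocyte markers summed to 334, 397 and 394 CPM in adult libraries, against 207, 176 and 165 CPM in perinatal ones, with 1 or 2 of them at 0 in each adult library. Osteoblast markers summed to 3238 to 3881 CPM in adult libraries, against 28630 to 50430 CPM in perinatal ones, and proliferation markers to 128 to 171 CPM in adult libraries, against 379 to 433 CPM in perinatal ones. The 5 listed of 7 fibroblast progenitor markers summed to 19.8 to 28.4 CPM in adult libraries, against 548 to 1488 CPM in perinatal ones. Erythroid markers were at 0 to 0.0589 CPM in adult libraries, against 422 to 943 CPM in perinatal ones. The part of these cell types in the lipid gene differences was not tested.

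Among the enzymes that supply and build fatty acids, Acly, which splits citrate to cytosolic acetyl-CoA, was at 318, 280 and 290 CPM in adult libraries, against 56.0, 82.5 and 89.6 CPM in perinatal ones (log2 fold change 1.69, SE 0.20, edgeR adjusted p = 0.00014). Acaca, the acetyl-CoA carboxylase of lipogenic tissue, was at 88.9, 80.6 and 88.2 CPM in adult libraries, against 28.7, 36.7 and 32.3 CPM in perinatal libraries (1.13 on the log2 scale, edgeR adjusted p = 0.000157). The groups did not overlap for either. Fasn, the synthase itself, was at 407, 196 and 373 CPM in adult libraries, against 88.6, 156 and 168 CPM in perinatal ones (log2 fold change 0.98, SE 0.34, edgeR adjusted p = 0.0314), with adult library 2 nearest the perinatal range. Its call was lost without adult library 1 (adjusted p = 0.0829), adult library 3 (0.0773) or perinatal library 2 (0.0568). Acss2, which makes acetyl-CoA from acetate, was at 8.80, 9.66 and 6.56 CPM in adult libraries, against 8.57, 11.4 and 7.40 CPM in perinatal ones, and did not pass (edgeR adjusted p = 0.147).

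Of the 4 desaturases 3 rose, and the elongase fell. Scd2 (ENSMUSG00000025203, chromosome 19, 44293674 to 44306864, plus strand, mm10), a stearoyl-CoA desaturase, was at 817, 511 and 691 CPM in adult libraries, against 111, 113 and 97.1 CPM in perinatal ones. That was a 5.24-fold rise (log2 fold change 2.39, SE 0.21, edgeR adjusted p = 3.07e-05), the highest log2 fold change of the 30 genes. Its relative Scd1 was at 75.6, 48.2 and 61.7 CPM in adult libraries, against 41.1, 30.01 and 28.4 CPM in perinatal libraries (0.63 on the log2 scale, edgeR adjusted p = 0.0308). Scd1 lost its call with upper quartile scaling (adjusted p = 0.0658), without adult library 1 (0.0901) or 3 (0.0607), without perinatal library 2 (0.098) or 3 (0.0875), and without both of these (0.31). Reads of these near copies may be split between them. Fads1, the delta-5 desaturase of polyunsaturated fatty acids, was at 201, 163 and 205 CPM in adult libraries, against 81.5, 107 and 110 CPM in perinatal ones (log2 fold change 0.66, edgeR adjusted p = 0.0089). Fads2, the delta-6 desaturase, was at 37.7, 28.9 and 35.8 CPM in adult libraries, against 6.14, 20.5 and 21.4 CPM in perinatal libraries, did not overlap, and did not pass (edgeR adjusted p = 0.107). It was called higher without perinatal library 1 (log2 fold change 0.45, edgeR adjusted p = 0.028), with total-count scaling (1.09, 0.0373) and without perinatal libraries 2 and 3 (2.23, 0.000599). Elovl6 (ENSMUSG00000041220, chromosome 3, 129532355 to 129638495, plus strand, mm10), which lengthens palmitate, fell to 10.9, 11.1 and 9.32 CPM in adult libraries, against 40.1, 46.4 and 41.0 CPM in perinatal ones. Its log2 fold change was -2.29 (SE 0.14, edgeR adjusted p = 4.64e-06), the lowest of the 30, and the groups were far apart.

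Both SREBP genes rose in adult cells. Srebf2 was at 302, 193 and 307 CPM in adult libraries, against 45.0, 60.7 and 72.8 CPM in perinatal ones (log2 fold change 1.9, SE 0.26, edgeR adjusted p = 0.000318). Srebf1 was at 167, 102 and 159 CPM in adult libraries, against 54.8, 68.4 and 62.0 CPM in perinatal ones (log2 fold change 0.94, SE 0.22, edgeR adjusted p = 0.00473). Adult library 2 was the lowest adult library for both genes, and for 8 of the 10 fatty acid genes. Insig1, whose protein retains SREBPs, was at 200, 215 and 187 CPM in adult libraries, against 122, 128 and 112 CPM in perinatal libraries (0.47 on the log2 scale, edgeR adjusted p = 0.00623). Stard4, a carrier of cholesterol between membranes, lay above without overlap at 65.8, 69.2 and 62.6 CPM in adult libraries, against 40.9, 51.7 and 46.7 CPM in perinatal libraries, and did not pass (edgeR adjusted p = 0.126). Stard4 was called higher with total-count scaling (edgeR adjusted p = 0.00866) and without perinatal libraries 2 and 3 (0.0246).

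**Figure D2:**
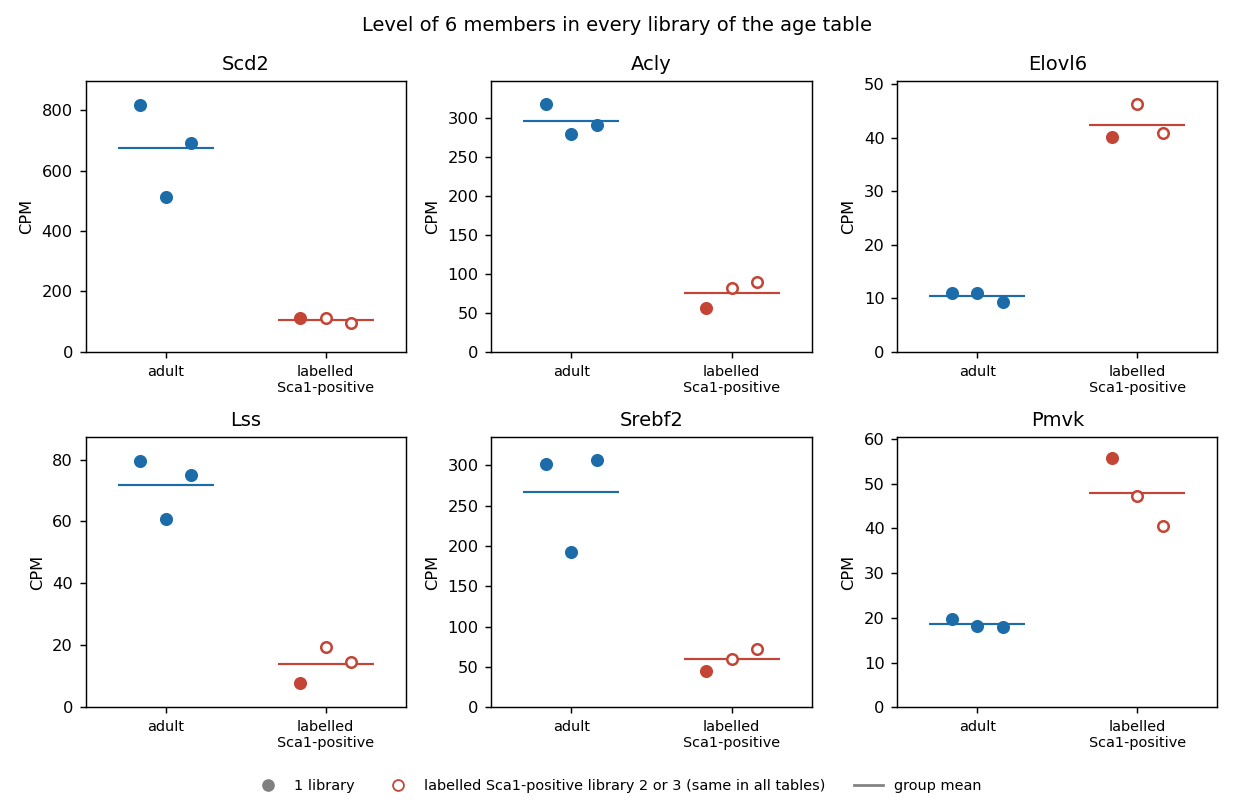
CPM of 6 members in each adult and labelled Sca1-positive library of the age table, with lines at the group means and axes from 0. Scd2, Acly, Lss and Srebf2 were higher and Elovl6 and Pmvk lower in all 3 adult libraries.

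Within the sterol arm 5 enzymes up to squalene fell in adult cells, while of the later enzymes 4 rose and 1 fell. Mvk and Mvd before squalene, and Sqle, Cyp51, Msmo1, Nsdhl and Sc5d after it, were not called. Among all genes tested 37.4% were higher and 39.7% lower, so the share of later enzymes that rose was near that of all genes. A split between early and late enzymes was not tested. Pmvk, which phosphorylates mevalonate phosphate, fell to 19.9, 18.1 and 17.9 CPM in adult libraries, against 55.7, 47.3 and 40.5 CPM in perinatal ones (log2 fold change -1.63, SE 0.15, edgeR adjusted p = 4.25e-05). Fdft1, squalene synthase, fell to 45.4, 49.8 and 43.7 CPM in adult libraries, against 79.9, 136 and 108 CPM in perinatal ones (log2 fold change -1.49, SE 0.20, edgeR adjusted p = 0.000255). The groups were apart for both genes. Idi1, the isomerase of isopentenyl diphosphate, Fdps, the farnesyl diphosphate synthase, and Hmgcs1, which forms HMG-CoA, also fell, by log2 fold changes of -0.84, -1.09 and -0.59 (edgeR adjusted p = 0.00208, 0.000396 and 0.00437). Fdps was at 122, 117 and 112 CPM in adult libraries, against 170, 244 and 204 CPM in perinatal ones, and Idi1 at 44.2, 58.7 and 41.5 CPM in adult libraries, against 63.9, 82.7 and 67.5 CPM in perinatal ones. Hmgcs1 overlapped between groups in unscaled CPM, with 139, 158 and 136 in adult libraries, against 156, 195 and 190 in perinatal ones, and lost its call with total-count scaling (adjusted p = 0.0652). Mvk and Mvd, the mevalonate kinase and the diphosphomevalonate decarboxylase, and Sqle, squalene epoxidase, had log2 fold changes of -0.25, -0.09 and -0.42 and did not pass (edgeR adjusted p = 0.139, 0.748 and 0.132). Without perinatal libraries 2 and 3 Mvd was called higher (log2 fold change 0.57, edgeR adjusted p = 0.0367), and with upper quartile scaling Mvk was called lower (-0.38, 0.043). Without perinatal library 1 Sqle and Cyp51 were called lower (log2 fold change -0.63 and -0.55, edgeR adjusted p = 0.00114 and 0.000712).

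Lss (ENSMUSG00000033105, chromosome 10, 76531588 to 76557138, plus strand, mm10), which closes the sterol ring, was at 79.7, 60.9 and 75.0 CPM in adult libraries, against 7.96, 19.6 and 14.7 CPM in perinatal ones, a 4.23-fold rise (log2 fold change 2.08, SE 0.31, edgeR adjusted p = 0.000507). Hsd17b7, a 3-ketosteroid reductase, was at 41.5, 46.0 and 45.0 CPM in adult libraries, against 10.7, 19.3 and 16.3 CPM in perinatal libraries (1.24 on the log2 scale, edgeR adjusted p = 0.00103). Neither gene overlapped between groups. Dhcr7, the last reductase before cholesterol, and Tm7sf2, another sterol reductase, rose by 0.74 and 0.89 on the log2 scale (edgeR adjusted p = 0.0285 and 0.0294). Tm7sf2 stayed low, at 13.1 to 14.3 CPM in adult libraries, against 3.74 to 9.11 CPM in perinatal ones, and lost its call with upper quartile scaling (adjusted p = 0.0542), without any 1 adult library (0.0575 to 0.0685), without perinatal library 2 (0.0872) or 3 (0.0588), and without both of these (0.159). Dhcr7, at 60.3, 47.6 and 60.5 CPM in adult libraries, against 17.9, 33.6 and 32.2 CPM in perinatal ones, lost its call with upper quartile scaling (0.0502) and without adult library 1 (0.0632) or 3 (0.066). Ebp, the sterol isomerase, was the late step that fell, to 41.4, 43.5 and 43.4 CPM in adult libraries, against 66.7, 55.5 and 53.0 CPM in perinatal ones (log2 fold change -0.72, edgeR adjusted p = 0.00125). Cyp51, the lanosterol demethylase, Msmo1 and Nsdhl, which act in removing methyl groups from lanosterol, and Sc5d, a sterol desaturase, had log2 fold changes of -0.36 to 0.13 and did not pass (edgeR adjusted p = 0.0686 to 0.66). Msmo1 nevertheless lay above without overlap in unscaled CPM, at 115, 123 and 111 in adult libraries, against 76.4, 97.1 and 91.0 in perinatal ones. It was called higher with total-count scaling (edgeR adjusted p = 0.026) and without perinatal libraries 2 and 3 (0.0425), and Nsdhl was called lower with upper quartile scaling (0.0219).

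The authors' TPM, transcript levels scaled for length and depth, gave the order of levels between genes. Fasn and Acaca are left out of that order because their TPM and counts disagree, as described next. In the sterol arm Fdps led, at 169 ± 10.1 TPM in adult libraries (SD, n = 3), above Insig1 at 129 ± 3.48 TPM. In perinatal libraries Fdps was at 243 ± 56.2 TPM (SD, n = 3), followed by Hmgcs1 at 79.2 ± 16.5 and Msmo1 at 66.0 ± 13.3 TPM. By library Hmgcs1 was at 60.1, 88.7 and 88.8 TPM and Msmo1 lower each time, at 50.7, 73.8 and 73.6 TPM. In the fatty acid arm Scd2 led in adult libraries at 195 ± 50.4 TPM, followed by Acly at 112 ± 10.4 and Fads1 at 85.1 ± 14.2 TPM. In perinatal libraries Fads1 was at 36.8 ± 8.12 TPM and Srebf1 at 25.1 ± 5.97 TPM (SD, n = 3). By library Fads1 was at 27.5, 40.1 and 42.7 TPM and Srebf1 lower each time, at 19.0, 25.3 and 30.9 TPM.

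Fasn ran in opposite directions in the deposited counts and TPM. Its TPM were 61.9, 35.6 and 57.1 in adult libraries, against 62.6, 136 and 164 in perinatal ones, lower where the counts were higher. The TPM value per CPM of Fasn was 0.152 to 0.181 in adult libraries, against 0.706 to 0.978 in perinatal ones. Acaca moved the other way, at 0.319 to 0.423 in adult libraries, against 0.134 to 0.148 TPM per CPM in perinatal libraries, so that its log2 ratio of group means was 2.85 in TPM and 1.399 in CPM. Over 13423 tested genes the log2 ratio in TPM exceeded that in CPM by a median of 0.31 in the age table, and 4.39% of genes differed from that median by more than 1. Fasn and Acaca were the 2 members that did so, in the age table. Signs were opposite for 8.46% of genes and for 7 members, Hmgcs1, Sqle, Cyp51, Nsdhl, Ebp, Acss2 and Fasn, of which Hmgcs1, Ebp and Fasn were called in the counts. The cause was not tested.

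Neighbouring pathways were described from lists of other genes, to be read against the 37.4% higher and 39.7% lower of all genes. Sterol efflux and storage genes were higher in adult cells in 8 of 10 cases and lower in 0. Abca1, the cholesterol exporter, averaged 515 ± 69.6 CPM in adult cells, against 7.44 ± 1.17 CPM in perinatal cells (SD, n = 3 each; log2 fold change 6.12, edgeR adjusted p = 6.99e-07). Apoe, an apolipoprotein that macrophages also make, and Soat1, which esterifies cholesterol, rose by 6.38 and 4.17 on the log2 scale (edgeR adjusted p = 4.7e-06 and 2.64e-06). Fatty acid oxidation genes were lower in 10 and higher in 3 of 17 tested, with Acaa2, a mitochondrial thiolase, averaging 27.0 ± 1.495 CPM in adult cells, against 211 ± 51.8 CPM in perinatal cells (SD, n = 3 each; edgeR adjusted p = 8.49e-06). Of 16 other sterol genes 7 rose and 8 fell, among them Mbtps2, a protease that releases SREBPs, which rose by 2.29, and Acat2, a thiolase of the mevalonate route, with a log2 fold change of -1.35 (edgeR adjusted p = 5.79e-06 and 7.23e-05). Of 23 tested other fatty acid and glycerolipid genes 11 rose and 6 fell. Acsl1, an acyl-CoA synthetase, rose by 2.06 and Tecr, the last reductase of chain elongation, had a log2 fold change of -1.61 (edgeR adjusted p = 5.81e-06 and 4.59e-05).

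**Figure D3:**
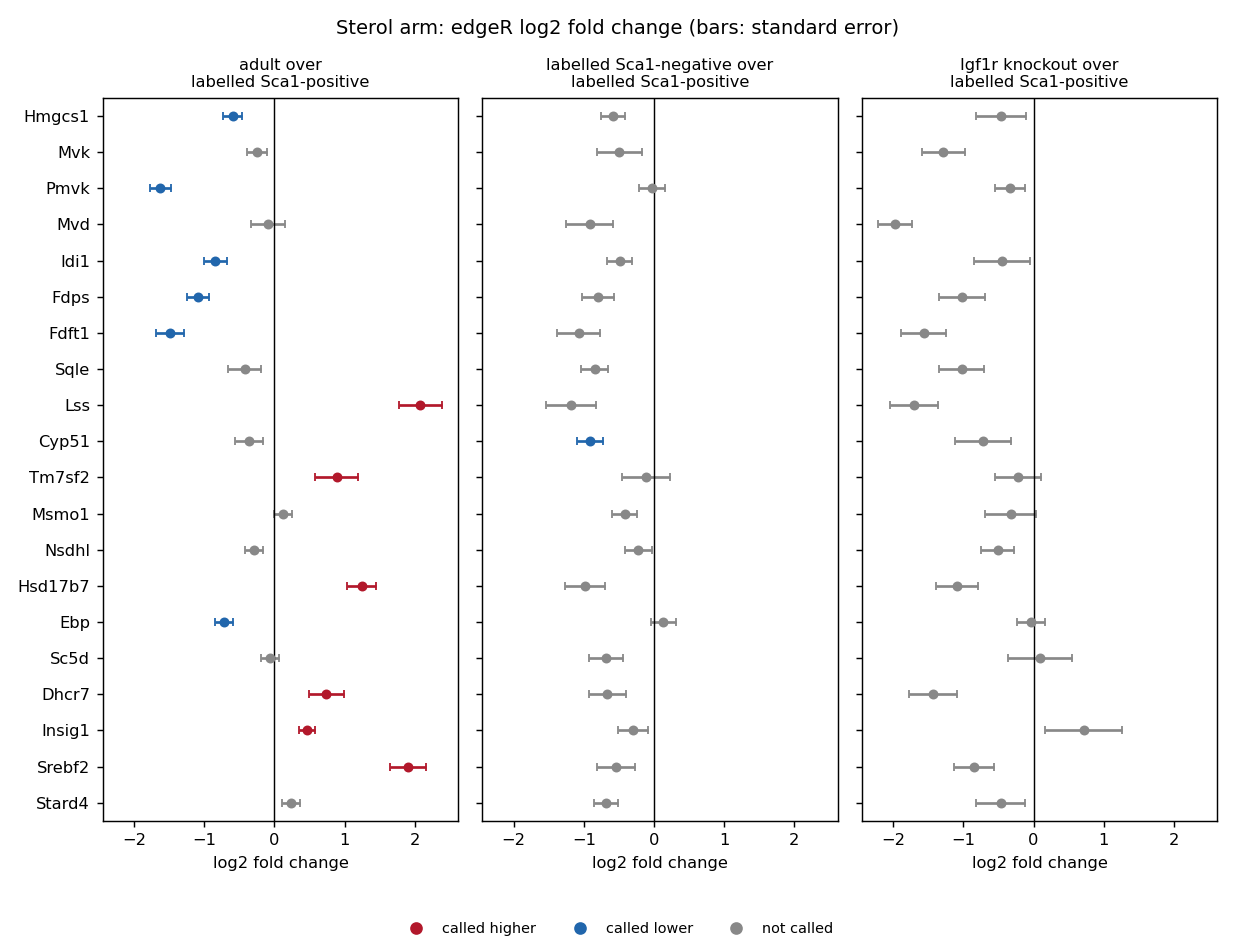
edgeR log2 fold change of each sterol gene, in pathway order, in adult, labelled Sca1-negative and Igf1r knockout cells, each over labelled Sca1-positive cells of the same table. Bars are standard errors and colours mark the calls; called genes lie on both sides of 0 in adult cells, 19 of 20 genes lie below 0 in labelled Sca1-negative cells and 18 of 20 in knockout cells, where none was called.

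In labelled Sca1-negative cells the sterol genes lay below labelled Sca1-positive cells, and 1 of them passed the test. Cyp51 (ENSMUSG00000001467, chromosome 5, 4081145 to 4104746, minus strand, mm10) fell to 62.0 and 74.4 CPM in labelled Sca1-negative libraries, against 137 and 125 CPM in labelled Sca1-positive ones (log2 fold change -0.91, SE 0.19, edgeR adjusted p = 0.0492). Its call was lost without the low-count filter (edgeR adjusted p = 0.0503). Without any 1 library its log2 fold change was -1.01 to -0.81. Such fits leave the other library of a group alone and cannot show whether the call holds. In all 0 sterol genes were called higher and 1 lower, and 0 and 0 fatty acid genes, against 1.63% and 2.79% of 13529 genes tested. The log2 fold change was below 0 for 19 of 20 sterol genes, with a median of -0.62, and for 9 of 10 fatty acid genes, with a median of -0.23, against 0.01 over all genes. Without labelled Sca1-negative library 2 the fatty acid median was 0.014 and 4 of 10 genes lay below 0. Without library 3 the medians were -0.60 over the fatty acid and -0.96 over the sterol genes. Libraries did not overlap for 16 sterol genes, all lower, and for 1 higher and 4 lower fatty acid genes, against 22.2% higher and 27.6% lower among all genes. At an unadjusted p under 0.05 there were 12 sterol and 2 fatty acid genes, beside 2563 of all genes (18.9%), and DESeq2 called 5 and 2, beside 1012 of all genes. The fatty acid share of 20% is thus near that of all genes. Since Ly6a went against the labels in these libraries, every direction here is by label alone.

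The summed sterol level was 890 and 1078 CPM in labelled Sca1-negative libraries, against 1627 and 1453 CPM in labelled Sca1-positive ones. Squalene epoxidase Sqle was at 67.3 and 84.4 CPM in labelled Sca1-negative libraries, against 147 and 131 CPM in labelled Sca1-positive ones (log2 fold change -0.84, edgeR adjusted p = 0.0668). Fdft1 was at 39.8 and 73.5 CPM in labelled Sca1-negative libraries, against 136 and 108 CPM in labelled Sca1-positive ones, and Lss at 4.85 and 9.97 CPM in labelled Sca1-negative libraries, against 19.6 and 14.7 CPM in labelled Sca1-positive ones. These pairs did not overlap, and their edgeR adjusted p-values were 0.115 and 0.137. Fdps was at 104 and 149 CPM in labelled Sca1-negative libraries, against 244 and 204 CPM in labelled Sca1-positive ones (log2 fold change -0.79, edgeR adjusted p = 0.118). Hmgcs1 was at 127 and 123 CPM in labelled Sca1-negative libraries, against 195 and 190 CPM in labelled Sca1-positive ones (log2 fold change -0.59, edgeR adjusted p = 0.13). Both were apart by library. Mvd was at 15.3 and 32.3 CPM in labelled Sca1-negative libraries, against 47.7 and 43.7 CPM in labelled Sca1-positive ones, and Hsd17b7 at 6.69 and 10.99 CPM in labelled Sca1-negative libraries, against 19.3 and 16.3 CPM in labelled Sca1-positive ones. Stard4 was at 29.97 and 30.07 CPM in labelled Sca1-negative libraries, against 51.7 and 46.7 CPM in labelled Sca1-positive ones (log2 fold change -0.68, edgeR adjusted p = 0.0902). Ebp, at 61.3 and 55.0 CPM in labelled Sca1-negative libraries, against 55.5 and 53.0 CPM in labelled Sca1-positive ones, was the sterol gene with a log2 fold change above 0. Library 2 of the labelled Sca1-negative cells was the lower of its pair for 17 of 20 sterol and 9 of 10 fatty acid genes. Over fits without 1 library, where the lone library was assumed to vary like the other group, the sterol median was -0.96 to -0.50. In these fits 17 to 19 sterol genes had a log2 fold change below 0.

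None of the fatty acid genes passed between these gates in the edgeR test. Summed levels were 422 and 639 CPM in labelled Sca1-negative libraries, against 671 and 658 CPM in labelled Sca1-positive ones. Scd1 lay above, at 49.8 and 47.9 CPM in labelled Sca1-negative libraries, against 30.02 and 28.4 CPM in labelled Sca1-positive ones (log2 fold change 0.78, SE 0.17, edgeR adjusted p = 0.0633). Fads2 was at 3.21 and 11.4 CPM in labelled Sca1-negative libraries, against 20.5 and 21.4 CPM in labelled Sca1-positive ones (log2 fold change -1.51, SE 0.51, edgeR adjusted p = 0.174). Both were apart by library and neither passed, while Scd2, Acly, Acaca, Srebf1 and Acss2 overlapped. Leaving out 1 library left the other of its group alone, so only effect sizes are given for these fits. For Fads2 the log2 fold change was -2.64 without labelled Sca1-negative library 3 and -0.87 without 2. It was -1.57 and -1.46 without labelled Sca1-positive libraries 2 and 3. For Scd1 the log2 fold change was 0.72 to 0.835 over these fits. With all libraries kept, DESeq2 called both genes (DESeq2 adjusted p = 0.0142 for Fads2 and 0.0337 for Scd1). The authors' deposited table listed Cyp51, Fdft1, Fdps, Lss and Sqle as lower, Fads2 as lower and Scd1 as higher at an adjusted p under 0.05. Of the other lists, Acat2 fell to 50.4 ± 3.25 CPM in labelled Sca1-negative libraries, against 93.0 ± 6 CPM in labelled Sca1-positive ones (SD, n = 2 each; edgeR adjusted p = 0.0474), and no other gene of the 4 lists passed. The most abundant uncalled genes were Cyb5r3, Mbtps1, Tecr, Elovl1, Npc2, Apoe, Acaa2 and Acadvl, with log2 fold changes of -0.70 to 0.55. Cartilage markers summed to 639 and 760 CPM in labelled Sca1-negative libraries, against 6393 and 7610 CPM in labelled Sca1-positive ones. Osteoblast markers summed to 24050 and 28240 CPM in labelled Sca1-negative libraries, against 49410 and 50450 CPM in labelled Sca1-positive ones, and fibroblast progenitor markers to 2340 and 3042 CPM in labelled Sca1-negative libraries, against 574 and 706 CPM in labelled Sca1-positive ones. Stroma of marrow markers summed to 589 and 720 CPM in labelled Sca1-negative libraries, against 822 and 968 CPM in labelled Sca1-positive ones, and erythroid markers to 177 and 524 CPM in labelled Sca1-negative libraries, against 717 and 944 CPM in labelled Sca1-positive ones. Adipocyte markers summed to 250 and 213 CPM in labelled Sca1-negative libraries, against 176 and 165 CPM in labelled Sca1-positive ones. Proliferation markers summed to 306 and 328 CPM in labelled Sca1-negative libraries, against 408 and 434 CPM in labelled Sca1-positive ones. Their part in these values was not tested.

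**Figure D4:**
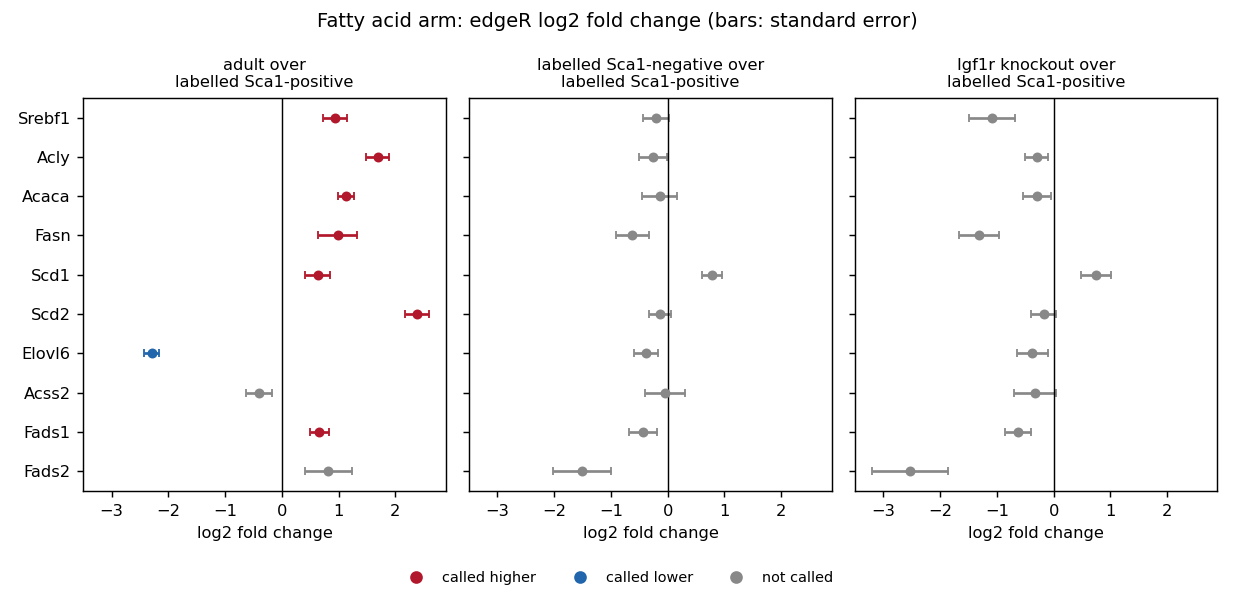
edgeR log2 fold change of each fatty acid gene in the same 3 comparisons, with standard errors and colours for the calls. In adult cells 7 genes were called higher and Elovl6 lower; in the other 2 comparisons none was called and Scd1 alone lay above 0.

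In Igf1r knockout cells no member passed the edgeR test, and most lay below their controls. Of 13590 genes tested, 0% were called higher and 0.0368% lower (5 genes), and 0 of the 30 members were called in either direction. At an unadjusted p under 0.05 there were 9 sterol and 5 fatty acid genes, beside 2963 of all genes (21.8%), and DESeq2 called 8 and 2, beside 999 of all genes. The log2 fold change was below 0 for 18 of 20 sterol genes (median -0.62) and for 9 of 10 fatty acid genes (median -0.35), against a median of -0.03 over all genes. The knockout libraries lay below all controls for 10 sterol and 5 fatty acid genes and above for 0 and 1, against 12.6% lower and 15.4% higher among all genes.

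Mvd (ENSMUSG00000006517, chromosome 8, 122433601 to 122443422, minus strand, mm10), which makes isopentenyl diphosphate, was nearest the threshold. It was at 15.1, 10.7 and 9.08 CPM in knockout libraries, against 47.1, 47.7 and 43.8 CPM in their controls (log2 fold change -1.98, SE 0.24, edgeR adjusted p = 0.0561). The 3 controls lay close together and every knockout lay far below them. Mvk was at 16.4, 14.8 and 8.37 CPM in knockout libraries, against 38.7, 32.9 and 25.2 CPM in their controls (log2 fold change -1.29, edgeR adjusted p = 0.176). Lss was at 5.09, 3.16 and 4.54 CPM in knockout libraries, against 8.88, 19.6 and 14.7 CPM in their controls, and Dhcr7 at 17.0, 10.9 and 5.89 CPM in knockout libraries, against 25.8, 33.6 and 32.3 CPM in their controls. Fdft1 was at 29.8, 37.3 and 30.5 CPM in knockout libraries, against 56.5, 136 and 108 CPM in their controls, with library 1 again the lowest control. The edgeR adjusted p was 0.176 for Lss, Dhcr7 and Fdft1. Fdps, Sqle, Hsd17b7, Srebf2 and Pmvk also lay below without overlap, with log2 fold changes of -1.09 to -0.34 (edgeR adjusted p = 0.177 to 0.352).

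A second set of sterol genes spread widely among the knockouts. Insig1 was at 54.4, 148 and 259 CPM in knockout libraries, against 59.9, 128 and 112 CPM in their controls (log2 fold change 0.72, SE 0.55, edgeR adjusted p = 0.419). Sc5d was at 23.9, 44.4 and 72.6 CPM in knockout libraries, against 27.0, 61.4 and 51.8 CPM in their controls. Knockout library 1 was the lowest knockout and control library 1 the lowest control for both. Hmgcs1, Idi1, Cyp51 and Msmo1 showed the same lowest libraries and overlapped between groups. Over the arm, knockout library 1 was the lowest knockout for 12 of 20 sterol genes, and control library 1 the lowest control for 16. Their summed sterol levels were 637 CPM in knockout library 1, beside 917 and 1059 CPM in the other knockouts, and 904 CPM in control library 1, beside 1628 and 1454 CPM in the other controls. Single sterol genes differed in order. Knockout library 1 was the highest knockout for 7 of them, Mvk, Mvd and Dhcr7 included, and knockout library 3 the lowest for 7.

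By summed level, the order of knockout libraries in the fatty acid arm was opposite to that in the sterol arm. The sums were 521, 417 and 378 CPM in knockout libraries, against 655, 671 and 658 CPM in their controls, without overlap. Knockout library 3 was the lowest knockout for 8 of the 10 genes and library 1 the highest for 7. Fasn was at 108, 56.3 and 38.0 CPM in knockout libraries, against 180, 156 and 168 CPM in their controls (log2 fold change -1.32, SE 0.36, edgeR adjusted p = 0.177). Srebf1 was at 60.2, 30.6 and 20.7 CPM in knockout libraries, against 104, 68.4 and 62.0 CPM in their controls (log2 fold change -1.09, edgeR adjusted p = 0.193). Fads2 (ENSMUSG00000024665, chromosome 19, 10062765 to 10101746, minus strand, mm10) was at 4.64, 4.01 and 0.463 CPM in knockout libraries, against 11.2, 20.5 and 21.4 CPM in their controls (log2 fold change -2.54, SE 0.67, edgeR adjusted p = 0.177). Knockout library 3 was the lowest by far. Fads1 and Acly also lay below without overlap, with log2 fold changes of -0.63 and -0.30. Scd1 lay above, at 46.1, 41.8 and 62.8 CPM in knockout libraries, against 34.03, 30.03 and 28.4 CPM in their controls (log2 fold change 0.74, edgeR adjusted p = 0.185).

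**Figure D5:**
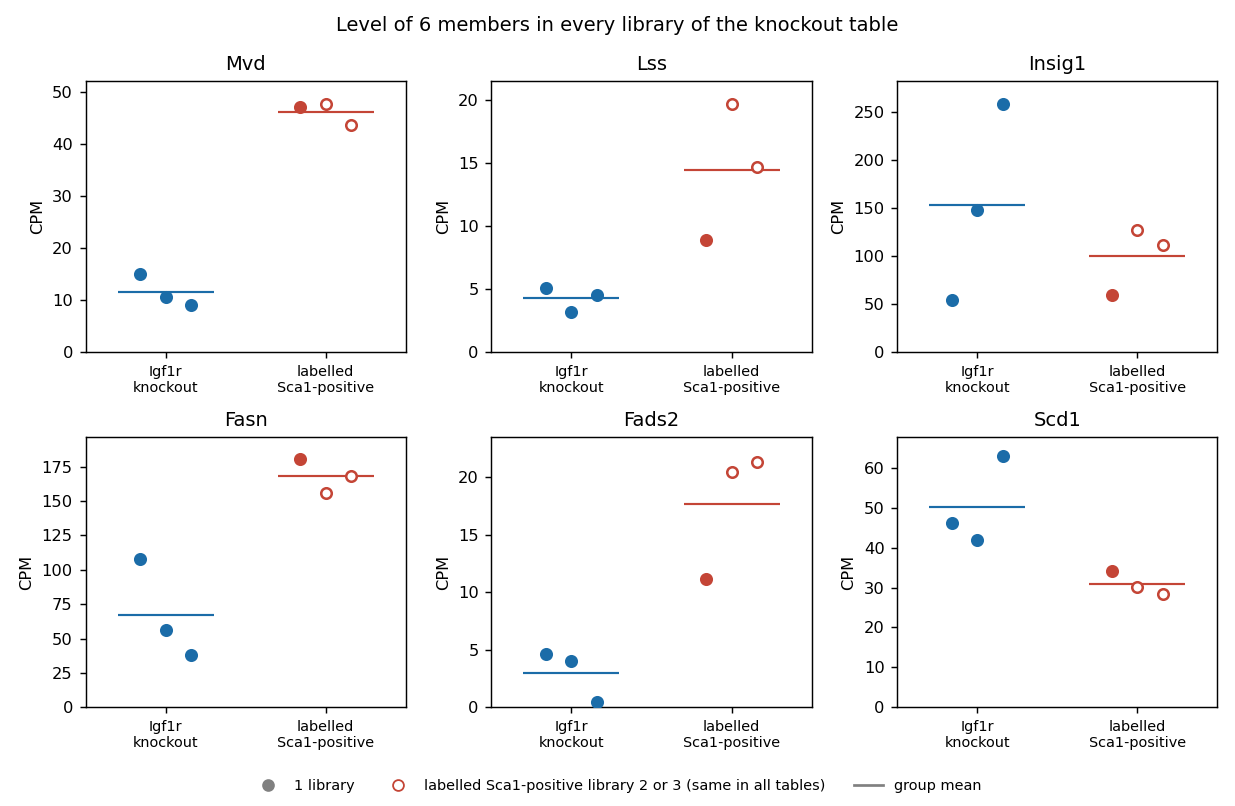
CPM of 6 members in each Igf1r knockout and control library of the knockout table, with lines at the group means and axes from 0; open points are controls 2 and 3. Mvd, Lss, Fasn and Fads2 were lower in every knockout, Scd1 was higher, and Insig1 overlapped between groups.

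Control library 1 was the control whose Ly6a was high, as in the knockouts. All 3 knockouts lay below it for 11 of 20 sterol genes and for 5 of 10 fatty acid genes, against 29.4% of all genes tested. They lay above it for 1 sterol gene, Stard4, and 1 fatty acid gene, Scd1, against 39.5% of all genes. Against control 1 alone the median log2 fold change was -0.38 over the sterol genes and -0.38 over the fatty acid genes, against 0.05 over all genes, with 13 and 8 below 0 and 0 of all genes called. Hmgcs1, Idi1, Cyp51, Msmo1, Stard4 and Elovl6 then had log2 fold changes of 0.03 to 0.32. Mvd kept a log2 fold change of -2.10 (edgeR adjusted p = 0.548), and that fit assumes that the lone control varies like the knockouts. Without knockout library 1 the edgeR test called Mvk, Mvd, Fdft1, Lss, Dhcr7, Srebf2, Srebf1, Fasn and Fads2 lower (edgeR adjusted p = 0.0214 to 0.0422) and 3003 genes in all, and without control 1 it called Mvd, Fdft1 and Lss and 306 genes in all. Without any other 1 library it called 0 genes. The authors' deposited table listed Dhcr7, Fdft1, Hsd17b7, Lss, Mvd, Mvk, Fads2 and Fasn as lower. No gene of the 4 other lists passed, with log2 fold changes of -1.10 to 0.10 for their most abundant genes Cyb5r3, Mbtps1, Tecr, Elovl1, Npc2, Apoe, Acaa2 and Acadvl. Cartilage markers summed to 792, 493 and 438 CPM in knockout libraries, against 925, 6395 and 7614 CPM in their controls, and proliferation markers to 328, 451 and 464 CPM in knockout libraries, against 262, 408 and 434 CPM in their controls. Erythroid markers summed to 144, 88.1 and 94.2 CPM in knockout libraries, against 732, 717 and 946 CPM in their controls. Osteoblast markers summed to 26320, 28960 and 29850 CPM in knockout libraries, against 34620, 49430 and 50480 CPM in their controls. Adipocyte markers summed to 214, 205 and 227 CPM in knockout libraries, against 156, 176 and 165 CPM in their controls. Fibroblast progenitor markers summed to 2636, 2544 and 2312 CPM in knockout libraries, against 2524, 575 and 706 CPM in their controls. Control 1 lay within the range of the knockouts for fibroblast progenitor markers. It lay outside that range for cartilage, proliferation, erythroid, osteoblast and adipocyte markers. The groups overlapped for proliferation, fibroblast progenitor, stroma of marrow, macrophage and endothelial markers. They did not overlap for cartilage, erythroid, osteoblast and adipocyte markers. The part of all these markers in the lipid gene values was not tested.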

How the data were processed

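The members and gene lists were chosen with earlier results of these data known. Per the submitters' processing notes, reads were trimmed with Trimmomatic 0.32, the build was mm10 and DESeq2 was used. The aligner, counter, annotation and strand setting stay unknown, not given in the sources used here. Values are uncertain for the 11 of 30 members that overlap exons of another gene in GENCODE M21 (Fdft1 with Ctsb, Cyp51 with Akap9, Srebf1, Tm7sf2, Acss2, Hmgcs1, Idi1, Lss, Elovl6, Fdps and Scd2). Each deposited table holds raw counts per gene, which were tested, and the authors' log2 fold changes and adjusted p-values. TPM in the age and Sca1 tables were made by the authors, per the file headers. Among the knockout data, 6 deposited columns headed TPM hold values below 0, as on a log scale, and were not used.

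Each table was fitted alone with edgeR 4.0.16 in R 4.3.3 (filterByExpr, TMM factors, glmQLFit with robust estimation and glmQLFTest). P-values were adjusted by Benjamini-Hochberg over all genes tested, with calls made below 0.05. The SE is the log2 fold change divided by the square root of F. Values per library are unscaled CPM, means ± SD are TMM-scaled CPM, and overlap between groups is in unscaled CPM. All 30 members were named, as were up to 3 called genes per direction of 4 other lists, or their 2 most abundant genes, and examples of these are given. The script was tested on simulated data. Alternatives were other scalings, no filter, DESeq2 1.42.0, a replicate block and libraries left out. The comparison of TPM with counts, the number of genes below control 1 and the lowest library per gene were added after the data were seen. Coordinates are from GENCODE M21 and promoters from RefSeq.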

Additional observations from a re-analysis of the deposited data

How the results depend on the processing

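In the age comparison 15 of the 20 called members kept their call in every alternative run, and the exceptions were Tm7sf2, Scd1, Dhcr7, Fasn and Hmgcs1. With total-count scaling the median log2 fold change over all genes was 0.21 and over the sterol genes 0.10, and with upper quartile factors -0.19 and -0.30. Without labelled Sca1-positive libraries 2 and 3 the sterol median was 0.19. The fatty acid median stayed above 0 throughout in the age table.

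In the Sca1 comparison 0 sterol genes were called without the low-count filter. DESeq2 called 1012 genes, 5 sterol and 2 fatty acid, and the fit with the replicate number as a block called 1369, 8 and 2. Leaving out 1 library gave 484 to 4835 genes, 0 to 15 sterol and 1 to 8 fatty acid. In the knockout comparison DESeq2 called 999 genes, 8 sterol and 2 fatty acid, and the replicate block and leaving out controls 2 and 3 each called 0 genes. Leaving out 1 library gave 0 to 3003 genes, 0 to 6 sterol and 0 to 3 fatty acid. Same-numbered libraries correlated in their deviations at -0.02, -0.02 and 0.19 in the age table, 0.30 in the Sca1 table and 0.19, 0.12 and 0.06 in the knockout table, so the numbers were not taken to pair the samples: pairing was accepted only with 3 or more pairs all above 0.1, and the Sca1 table has 2 pairs, which give 1 mirrored value. In neither the age nor the knockout table did every library correlate best with its own number. Leaving out labelled Sca1-positive libraries 2 and 3 gives no value in the Sca1 table, where they are the comparison. The cause of these shifts was not tested.

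Log2 fold changes turned sign for uncalled members. In the age table total-count scaling gave Mvk 0.018, Mvd 0.18 and Sc5d 0.21, upper quartile factors gave Msmo1 -0.0016, and leaving out labelled Sca1-positive libraries 2 and 3 gave Mvd 0.57 (called higher), Sqle 0.20 and Cyp51 0.18. Leaving out 1 library gave Mvd -0.31 to 0.076 and Sc5d -0.12 to 0.058. In the Sca1 table leaving out 1 library gave Pmvk -0.14 to 0.082, Tm7sf2 -0.43 to 0.19, Srebf1 -0.51 to 0.055, Acly -0.59 to 0.018, Acaca -0.67 to 0.25, Scd2 -0.28 to 0.0091 and Acss2 -0.50 to 0.30. In the knockout table the replicate block gave Sc5d -0.022 and leaving out 1 library -0.43 to 0.44. Without controls 2 and 3 Hmgcs1 was 0.085, Idi1 0.12, Cyp51 0.18, Msmo1 0.053, Stard4 0.32 and Elovl6 0.034.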
